A study of Mus musculus with 30 samples.

Results

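The 35 mitosis genes described here encode proteins that act between the G2 phase and the separation of daughter cells, and they were chosen by role to ask which tumours held most mitosis mRNA and which of the genes part from the rest. They were 35 of 24421 genes listed. All 35 passed the filter on low values that left 15824 genes for testing, namely 1 RPM or more in 3 or more libraries. RPM here is the deposited normalised value divided by 1 constant for all libraries. Library totals in this unit were 0.907 to 1.10 times a plain RPM total in tumours and 1.16 and 1.17 times in cortex. They comprised 7 cyclins, kinases and regulators of entry (Ccna2, Ccnb1, Ccnb2, Cdk1, Plk1, Aurka, Foxm1), 2 genes of chromosome structure (Top2a, Mki67), 6 of the centromere and kinetochore (Cenpa, Cenpe, Cenpf, Cenpk, Ndc80, Nuf2) and 4 of the spindle checkpoint (Bub1, Bub1b, Mad2l1, Ttk). The remaining members were 2 genes of the chromosomal passenger complex (Aurkb, Birc5), 6 spindle motors and microtubule binders (Kif11, Kif4, Kif2c, Tpx2, Nusap1, Hmmr), 2 of anaphase and exit (Cdc20, Ube2c) and 6 of the central spindle and cytokinesis (Kif20a, Kif23, Prc1, Ect2, Anln, Racgap1).

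The study profiled polyA RNA from whole cortical tumours of a mouse glioblastoma model at postnatal day 70, with tumours of different EGFR variants. EGFR is a receptor tyrosine kinase, and the variants change single residues of its extracellular part. The labels gave 5 tumours with A289I, 4 with A289V, 3 with R108G, 4 with R108K, 3 with R222C, 3 with T263P, 3 with wild-type EGFR and 3 with mCherry, a fluorescent protein named in place of an EGFR variant. Normal cortex of the same age gave 2 libraries and was labelled wild type. The labels did not say how the tumours were started, which promoter drove EGFR, or which other alterations all tumours shared. Tumours came from separate mice according to the design text, so p-values measured the spread between mice, and each tumour gave 1 library.

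A dividing cell builds up most of these mRNAs in G2 and mitosis and clears many of their proteins as mitosis ends. Most resting cells, neurons among them, carry little of either. In bulk tissue the level of such an mRNA reflects both how many cells carry it and how much each holds, and fewer cells of a type and less RNA per cell cannot be told apart.

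Libraries held between 2784129 and 24475215 reads, so that 1 read was worth 0.0387 to 0.383 RPM. Library numbers in the sample names fell into 3 ranges, below 20 (7 tumours), 20 to 37 (12 tumours and both cortex libraries) and above 37 (9 tumours). The labels did not say what these ranges stand for. All A289I and R108G tumours lay above 37 and all R222C and T263P tumours in 20 to 37. Met, which encodes another receptor tyrosine kinase, exceeded 1000 RPM in wild-type EGFR tumours 1 and 2 and in mCherry tumour 2. Markers of neurons were above 0 in every tumour for all 15 genes, and their summed level ran from 350 to 13162 RPM across tumours against 16342 and 16399 RPM in cortex. The summed level of 8 astrocyte markers ran from 1003 to 6697 RPM across tumours, and that of 10 myelin markers from 1105 to 14304 RPM, with none at 0 in any tumour. Of 12 T, NK and B cell markers, 6 were at 0 in at least 1 tumour.

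Every tumour held far more mitosis mRNA than cortex. Summed over the 35 genes, the level in cortex was 121 ± 0.797 RPM (SD, n = 2) against 790.1 to 4099 RPM in the 28 tumours. Of the 35 genes, 34 were higher in tumours than in cortex by limma with Benjamini-Hochberg adjusted p under 0.05, where 22.9% of all genes tested were higher. The median difference of the 35 genes was 4.53 on the log2(RPM + 1) scale, against 0.03 for all genes. For 33 genes every tumour lay above both cortex libraries, where 16.0% of all genes did so.

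Top2a, which encodes the topoisomerase that untangles sister chromatids, had the largest difference from cortex on the log2(RPM + 1) scale. It was at 1.204 and 1.70 RPM in cortex and between 86.8 and 539 RPM in tumours, with a median of 216. The lowest tumour lay far above both cortex libraries. The difference was 6.61 ± 0.43 (SE, log2 scale), with a limma adjusted p of 1.09e-10. In counts, the tumour mean of 255 RPM was 173 times the cortex level, with a 95% interval of 111 to 287 that covers counting of the 19 cortex reads only.

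The next differences from cortex belonged to Mki67, the proliferation antigen Ki-67, at 5.79 ± 0.42, to Ccnb1, the cyclin that drives mitotic entry, at 5.53 ± 0.40, and to Prc1, a bundler of antiparallel microtubules in the central spindle, at 5.52 ± 0.36. The smallest p-values also went to Foxm1, a transcription factor of G2 and mitosis genes (4.89), Ube2c, the ubiquitin-conjugating enzyme of the anaphase-promoting complex (5.14), Nuf2, a kinetochore subunit (4.58), and Cdk1, the kinase partner of cyclin B (5.37). Ndc80, the kinetochore protein that holds microtubules, was covered by 1 cortex read. Its tumour mean of 24.4 RPM was 315 times the cortex level, with a counting interval of 56.5 to 12439, a larger ratio than that of Top2a. Bub1b, which encodes the checkpoint protein BubR1, was covered by 3 cortex reads, with a ratio of 214 and a counting interval of 73.2 to 1037.

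At the other end, 3 members passed the test with small differences. Mad2l1, the checkpoint protein that restrains Cdc20, was 1.66 ± 0.31 higher in tumours (limma adjusted p 0.000138), with 11.7 RPM in each cortex library against 19.5 to 70.3 RPM in tumours. The Mad2l1 call was lost in 1 of 39 alternative runs, though in none of the 30 runs with 1 library left out. Cenpk, a subunit of the inner kinetochore, was 2.24 ± 0.38 higher (adjusted p 4.88e-05), and 1 of its tumours, A289I 3, overlapped cortex at 1.14 RPM. Racgap1, a component of the central spindle, was 3.08 ± 0.34 higher, from 15.1 and 13.6 RPM in cortex.

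Anln, which encodes anillin, the scaffold of the cleavage furrow, was the member that was not higher. It stood at 55.9 and 54.3 RPM in cortex. In tumours it ran from 19.98 to 66.03 RPM with a median of 36.3, so that the groups overlapped. The difference was -0.53 ± 0.34 with an adjusted p of 0.204. Cortex held 709 Anln reads, so depth did not limit its level there. Anillin is also known as a part of the septin scaffold of mature myelin.

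Each of the 8 tumour groups, set against the same 2 cortex libraries, gave the same count of 34 members higher and Anln not called. The share of all genes called higher ranged from 9.02% for A289V to 21.8% for R108K. It was 17.8% for mCherry and for R108G, 19.0% for A289I, 19.3% for wild-type EGFR, 19.4% for T263P and 20.7% for R222C. The median difference of the members was smallest in A289V, 3.64, and largest in T263P, 5.09.

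Among tumours, T263P held most mitosis mRNA and A289V least. The mean of log2(RPM + 1) over the 35 genes was 6.23, 5.58 and 6.48 in T263P (6.10 ± 0.47, SD, n = 3), and 4.54, 4.23, 5.26 and 5.18 in A289V (4.80 ± 0.50, n = 4). These groups did not overlap. No test was applied to this mean, since the genes were chosen together. The first place of T263P rested on T263P 3. Without it the T263P mean was 5.91, below those of R108K and wild-type EGFR. For neuron markers the same 2 groups stood at the opposite ends. The mean of log2(RPM + 1) over the 15 neuron markers was 4.84 ± 1.66 in T263P, the lowest, and 8.18 ± 0.96 in A289V, the highest, with the other groups between 5.21 and 6.52. Their summed level was 895 ± 493.2 RPM in T263P and 7672 ± 4697 RPM in A289V, and their part in the order was not tested.

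The other groups lay between them in an order whose neighbours overlapped. R108K stood at 5.85, 5.74, 6.28 and 5.92 (5.95 ± 0.24, n = 4), and wild-type EGFR at 6.13, 6.16 and 5.56 (5.95 ± 0.34, n = 3). mCherry stood at 5.64, 5.34 and 6.10 (5.69 ± 0.38, n = 3), and R108G at 5.79, 5.90 and 5.21 (5.63 ± 0.37, n = 3). Tumours without an EGFR variant were thus in the middle of the order, within the spread of most variant groups. R222C stood at 6.29, 5.19 and 5.20 (5.56 ± 0.63, n = 3), and A289I at 6.09, 5.11, 5.16, 4.59 and 5.21 (5.23 ± 0.54, n = 5). In each of these groups 1 tumour, R222C 1 and A289I 1, was far above the rest. Each step from one group to the next in this order was smaller than the SD of at least 1 of the groups beside it, and the cortex libraries, at 1.29 and 1.41, were far below all.

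**Figure D1:**
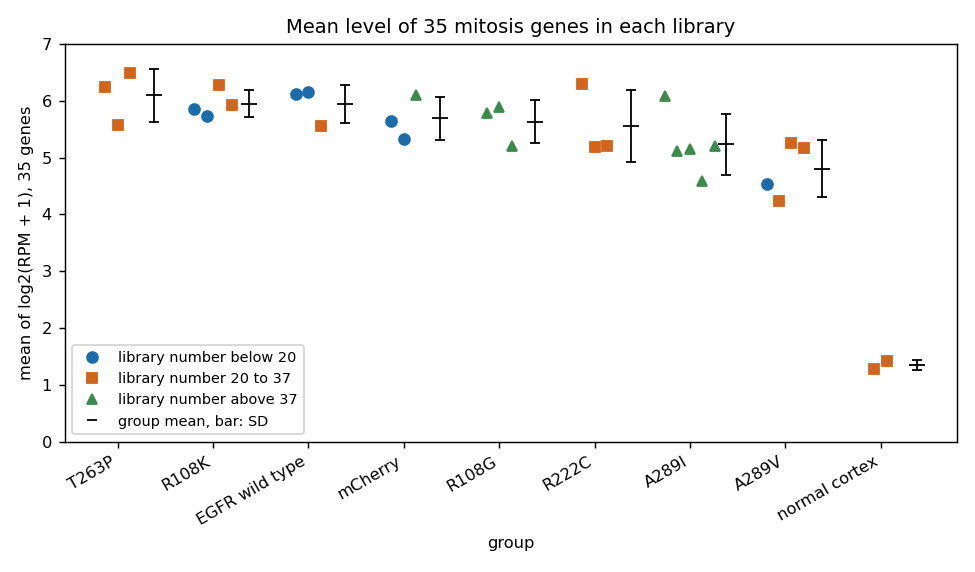
Mean of log2(RPM + 1) over the 35 mitosis genes in each library, by group; each point is 1 library and each bar the group mean. The 4 A289V tumours lie between 4.23 and 5.26, the 3 T263P tumours between 5.58 and 6.48, and the 2 cortex libraries at 1.29 and 1.41.

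Single tumours carried much of this order across genes. T263P 3 had the highest level of all tumours for 13 of the 35 genes and was among the 3 highest for 22. R108K 3 was highest for 7 genes and R222C 1 among the 3 highest for 15. A289V 2 was lowest for 22 genes, A289V 1 for 8 and A289I 4 for 2, and A289I 4 was among the 3 lowest for 27. A289I 1 lay above the tumour median in 34 of 35 genes, while A289I 2, 4 and 5 lay above it in 0. By group means, T263P was highest for 19 genes, wild-type EGFR for 8, R108K for 7 and mCherry for 1 (Kif4). A289V was lowest for 33 genes, and the exceptions were Cenpk, lowest in A289I, and Anln, lowest in R222C.

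**Figure D2:**
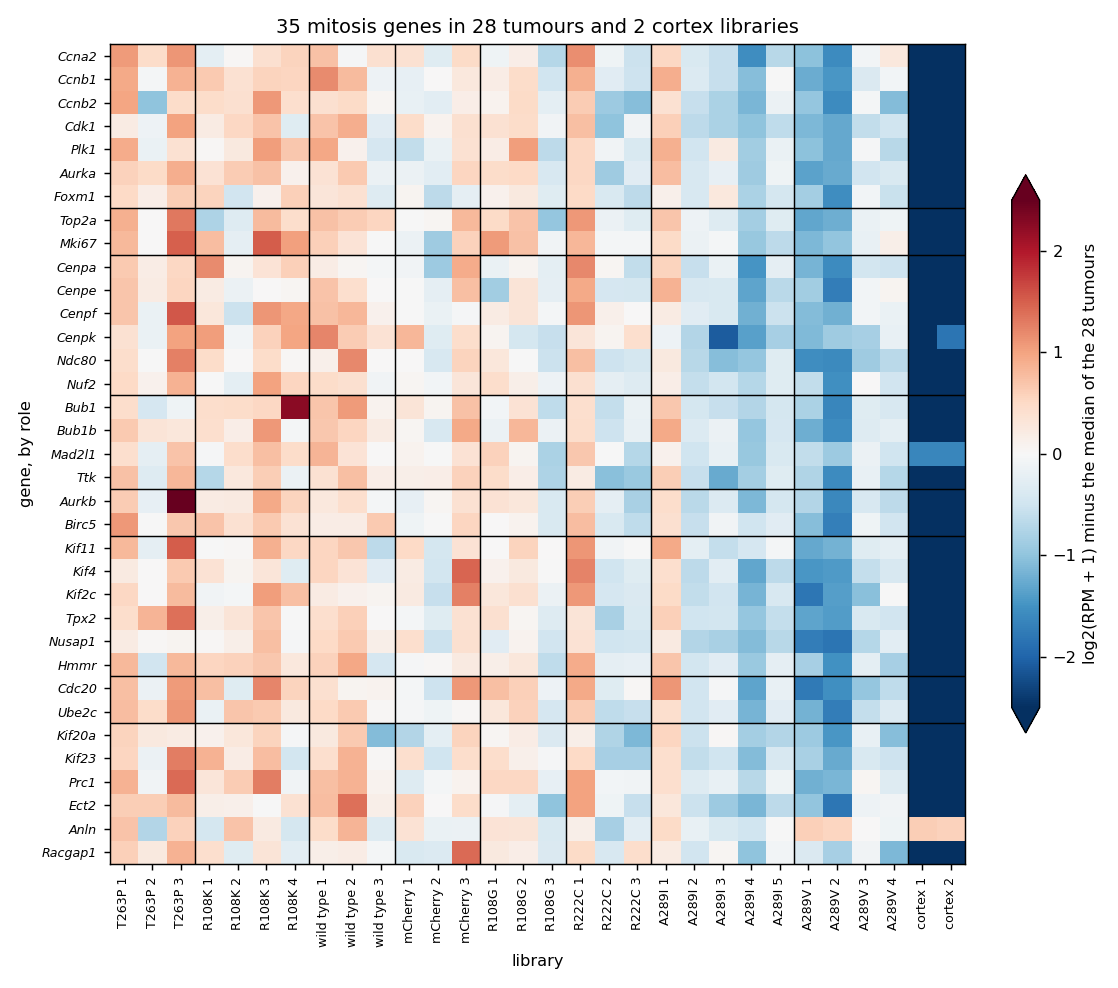
Heat map of the 35 mitosis genes (vertical axis, by role) in 28 tumours and 2 cortex libraries (horizontal axis, by group). Colour gives log2(RPM + 1) minus the gene's tumour median, with the colour scale ending at 2.5 in both directions. A289V 1 and 2 and A289I 4 are low for most genes, and T263P 3 is high, while Anln is above its median in A289V 1 and 2.

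To ask which members differed among the 8 tumour groups in any direction, an F-test over the tumours was made with limma. It called 7 of 35 members at an adjusted p under 0.05, where 10.3% of all genes were called. They were Cenpk (adjusted p 0.0139), Tpx2 (0.0210), Ube2c (0.0274), Nusap1 (0.0286), Ndc80 (0.0288), Ect2 (0.0359) and Birc5 (0.0495). edgeR on whole reads recovered from the deposited values also called 7, where 13.9% of all genes were called, and DESeq2 17, where 26.8% were. The count fell to 1 without A289V 1, to 1 without A289V 2 and to 0 without both, and it was 15 without A289I 1 and 12 without T263P 2. Shares of all genes called in these runs are not given here, so the changes cannot be called particular to the members. Neuron markers differed by the same F-test, with 8 of 15 called. With the neuron marker mean as a covariate the count of members was 0. That covariate followed the groups, with means from 4.84 in T263P to 8.18 in A289V, and the share of all genes called with it is not given here.

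A289V against wild-type EGFR was the comparison with most calls. All 35 means were lower in A289V, with a median difference of -1.18 against -0.01 for all genes. Of the 35, 17 fell at a limma adjusted p under 0.05, where 3.96% of all genes did. In 24 of them the 4 A289V tumours lay wholly below the 3 wild-type EGFR tumours, where 11.3% of all genes were so ordered.

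Nusap1, which bundles microtubules near chromosomes, gave the smallest p. It stood at 16.2, 15.1, 33.7 and 46.2 RPM in A289V and at 79.2, 88.8 and 61.7 RPM in wild-type EGFR. The highest A289V tumour was below the lowest wild-type tumour. The difference was -1.56 ± 0.34, 2.95-fold lower on that scale, with an adjusted p of 0.00960.

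Ndc80 stood at 7.47, 7.27, 12.4 and 14.5 RPM in A289V and at 26.1, 56.1 and 23.9 RPM in wild-type EGFR. The groups did not overlap, and A289V 1 and 2 were the lowest of all tumours. The difference was -1.62 ± 0.38 with an adjusted p of 0.0115.

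Ube2c stood at 26.1, 17.7, 39.6 and 47.4 RPM in A289V against 85.9, 95.9 and 62.2 RPM, a difference of -1.36 ± 0.35 (adjusted p 0.0159). Ect2, an exchange factor that acts at the cleavage furrow, stood at 22.1, 11.99, 40.6 and 41.5 RPM against 76.7, 116 and 48.95 RPM, a difference of -1.51 ± 0.39 (adjusted p 0.0161). In both genes A289V 1 and 2 were the low tumours, and no A289V tumour reached the lowest wild-type one. Cenpk fell by 1.49 ± 0.40 (adjusted p 0.0180), and Tpx2, a spindle assembly factor and activator of Aurora A, fell by 1.23 ± 0.34 (adjusted p 0.0192), again with no overlap.

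The other 11 members that fell were Cdk1, Birc5 (survivin, of the chromosomal passenger complex), Ccnb1, the checkpoint genes Bub1 and Bub1b, Prc1, Aurka (Aurora A, a kinase of spindle poles), Hmmr (a spindle binding protein), Cdc20 (the activator of the anaphase-promoting complex), Kif23 (a motor of the central spindle) and Cenpf. Every role had a member among the 17 except chromosome structure, where Top2a missed the threshold (-1.33 ± 0.45, adjusted p 0.05002) and Mki67 stood at -0.85 ± 0.44 (adjusted p 0.199). Top2a itself was at 86.8, 91.6, 192 and 201.2 RPM in A289V against 358, 334 and 314 RPM in wild-type EGFR, with no overlap. Anln differed least, by -0.07 ± 0.35 (adjusted p 0.917).

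These calls rested on few tumours. The count of 17 became 0 without A289V 2 and 0 without EGFR wild-type tumour 2, 2 without A289V 1 and 5 without EGFR wild-type tumour 1. Wild-type EGFR tumours 1 and 2 are those with Met above 1000 RPM. Within the range of library numbers below 20 the Nusap1 difference was -2.30 (limma adjusted p 0.0814), and within 20 to 37 it was -1.07 (adjusted p 0.321), with 0 members called in either range. Each of these ranges has 1 tumour in 1 arm, A289V 1 against wild-type EGFR tumours 1 and 2 below 20, and A289V 2 to 4 against wild-type EGFR tumour 3 in 20 to 37. The spread of the single tumour's arm was taken from the other groups, and a count of 0 there cannot show that the difference was lost. Neuron markers moved with this comparison. Of 15, 11 were higher in A289V by the same test, where 13.7% of all genes were called in either direction. The median difference of the 15 was 2.86, and their summed level ran from 3695 to 13162 RPM in A289V against 689 to 2090 RPM in wild-type EGFR. With the neuron marker mean as a covariate, 0 members were called and the Nusap1 difference was -1.11 (limma adjusted p 0.770). The covariate itself followed the groups, at 8.18 ± 0.96 in A289V and 5.49 ± 1.22 in wild-type EGFR. The share of all genes called in that run is not given here, so the count cannot show a loss particular to the members. Of 8 astrocyte markers 3 were also higher in A289V, and the part of other cells in the result was not tested.

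Against mCherry, with which the same A289V tumours were compared, 34 of 35 means were lower and the median difference was -0.90. Nusap1 was the member that fell, by 1.23 ± 0.34 (limma adjusted p 0.0440), where 1.68% of all genes fell. It stood at 75.0, 38.3 and 74.5 RPM in mCherry, so that mCherry 2 overlapped A289V 4 at 46.2 RPM. In 13 members the groups did not overlap, where 9.07% of all genes were lower without overlap, and 23 members had an unadjusted p under 0.05, where 24.3% of all genes did. The call was lost without A289V 1 or 2 or without any 1 of the 3 mCherry tumours, and edgeR called 0, where 1.91% of all genes were called, and DESeq2 6 lower, where 4.04% of all genes were lower. The count was 2 without A289V 3 and 8 without A289V 4, and the shares of all genes in these 2 runs are not given here. Of the 15 neuron markers 3 were higher in A289V than in mCherry by limma, where 4.91% of all genes were called in either direction.

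A289I, the other substitution of the same alanine, was lower than wild-type EGFR in all 35 means, with a median of -0.72. Cenpk was the member that fell, where 0.114% of all genes fell. It stood at 7.29, 4.45, 1.14, 2.55 and 4.08 RPM in A289I and at 20.1, 13.2 and 10.6 RPM in wild-type EGFR. No A289I tumour reached the lowest wild-type tumour, and Cenpk was the 1 member without overlap, where 4.26% of all genes were lower without overlap. The difference was -1.77 ± 0.38 with a limma adjusted p of 0.0476. It was lost without any 1 of A289I 2 to 5 or of wild-type EGFR tumours 1 and 2, and without A289I 1 the count was 2. It was also lost by limma with the neuron marker covariate (adjusted p 0.0628), with a term for the range of library numbers (0.725), with a pseudocount of 0.1 (0.0533) and without the filter (0.0670). Leaving out the tumours with Met above 1000 RPM left wild-type EGFR tumour 3 alone in its group, and the Cenpk difference was then -1.38. Markers of other cells moved with this comparison. The 10 myelin markers had 10 means higher in A289I, with a median of 2.02 and 0 called, and their summed level ran from 6239 to 14304 RPM in A289I against 2140 to 3765 RPM in wild-type EGFR. Of 15 neuron markers 14 had higher means in A289I, with a median of 1.07 and 0 called, and the part of other cells was not tested. A289I and wild-type EGFR shared no range of library numbers, so that range and variant cannot be told apart here.

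Against mCherry, A289I had 33 of 35 means lower with a median of -0.39 and 0 members called by limma or edgeR, where 0.607% of all genes were called by limma and 0.00632% by edgeR. DESeq2 called 1 lower, where 0.786% of all genes were lower, and 5 members had an unadjusted p under 0.05, where 10.96% of all genes did. The smallest p went to Cenpk, at -1.35 ± 0.38 (limma adjusted p 0.117), with 15.1, 6.37 and 11.3 RPM in mCherry. Without A289I 1 the count was 1. Of the 10 myelin markers 6 were called higher in A289I than in mCherry by limma, with a median difference of 2.67 for the 10 and a summed level of 1105 to 2431 RPM in mCherry. Their part in the result was not tested.

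Between A289I and A289V directly, 0 members were called by limma, edgeR or DESeq2, where 0% of all genes were called by limma and edgeR and 1.51% by DESeq2. An unadjusted p under 0.05 was found for 3 members, where 18.1% of all genes had one. The means of 33 members were higher in A289I with a median of 0.48. Cdc20 gave the smallest p, at 1.05 (limma adjusted p 0.169), from 141, 46.4, 63.9, 25.6 and 57.1 RPM in A289I and 18.5, 21.8, 32.9 and 41.4 RPM in A289V, which overlapped. Aurka followed at 0.70. A289I and A289V shared no range of library numbers, and with a term for the range the Cdc20 difference was 0.03 and that of Aurka -0.0455. The design therefore did not separate A289I from A289V, and a missed threshold does not show that they act alike.

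Wild-type EGFR against mCherry gave 0 calls by limma, edgeR and DESeq2 and 0 unadjusted p under 0.05. Of all genes 0% were called by limma and edgeR and 0.0634% by DESeq2, and 2.70% had an unadjusted p under 0.05. The means of 32 members were higher in wild-type EGFR, with a median of 0.27, and in 3 the groups did not overlap, where 3.00% of all genes were higher without overlap. The smallest p-values went to Prc1, at 0.67 from 138, 150.4 and 87.5 RPM against 65.3, 78.7 and 87.0 RPM, and to Cenpf, at 0.62. Prc1 did not overlap, although the nearest pair of tumours was at 87.5 and 87.0 RPM.

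The other 4 variants gave 0 calls against mCherry and against wild-type EGFR by limma, edgeR and DESeq2. Over these 8 comparisons, A289I against A289V, wild-type EGFR against mCherry and R108G against R108K, edgeR called 0 to 0.0379% of all genes and DESeq2 0.0634 to 1.51%. T263P was higher than mCherry in 33 means, with a median of 0.44 and 3 unadjusted p under 0.05 (5.55% of all genes), led by Tpx2 at 0.88 (limma adjusted p 0.877) and Ube2c at 0.82, where 0.00632% of all genes were called. R108K was higher than mCherry in 26 means, with a median of 0.28 and 1 unadjusted p under 0.05 (9.99% of all genes), led by Mki67 at 0.92 (adjusted p 0.483) and Prc1 at 0.63, where 0.0695% of all genes were called. R108G and R222C lay near mCherry, with medians of -0.03 and -0.16 and 0 unadjusted p under 0.05 (8.40% and 7.10% of all genes), where 0.0379% and 0% of all genes were called. Their leading members were Ect2 at -0.77 and Mki67 at 0.73 for R108G, and Ttk, a kinase of the spindle checkpoint, at -0.89 and Kif23 at -0.50 for R222C.

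Against wild-type EGFR, 0% of all genes were called by limma for each of these 4 variants. The median of the members was 0.14 for T263P, -0.04 for R108K, -0.26 for R108G and -0.42 for R222C, with 0, 0, 2 and 1 unadjusted p under 0.05, where the shares of all genes were 3.93%, 5.44%, 8.51% and 5.03%. The leading members were Aurkb (Aurora B, kinase of the passenger complex) at 0.79 and Tpx2 at 0.55 for T263P, and Ect2 and Top2a, both at -0.60, for R108K. For R108G they were Ect2 at -1.18 (limma adjusted p 0.440) and Cenpk at -1.05, and for R222C Ttk at -1.03 and Kif23 at -0.82. R108G against R108K, substitutions of the same arginine, gave 0 calls by limma, edgeR and DESeq2 and 2 unadjusted p under 0.05, where 9.92% of all genes had one. There the median was -0.27, and Bub1 led at -1.03 (adjusted p 0.451) before Cenpk at -0.95.

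**Figure D3:**
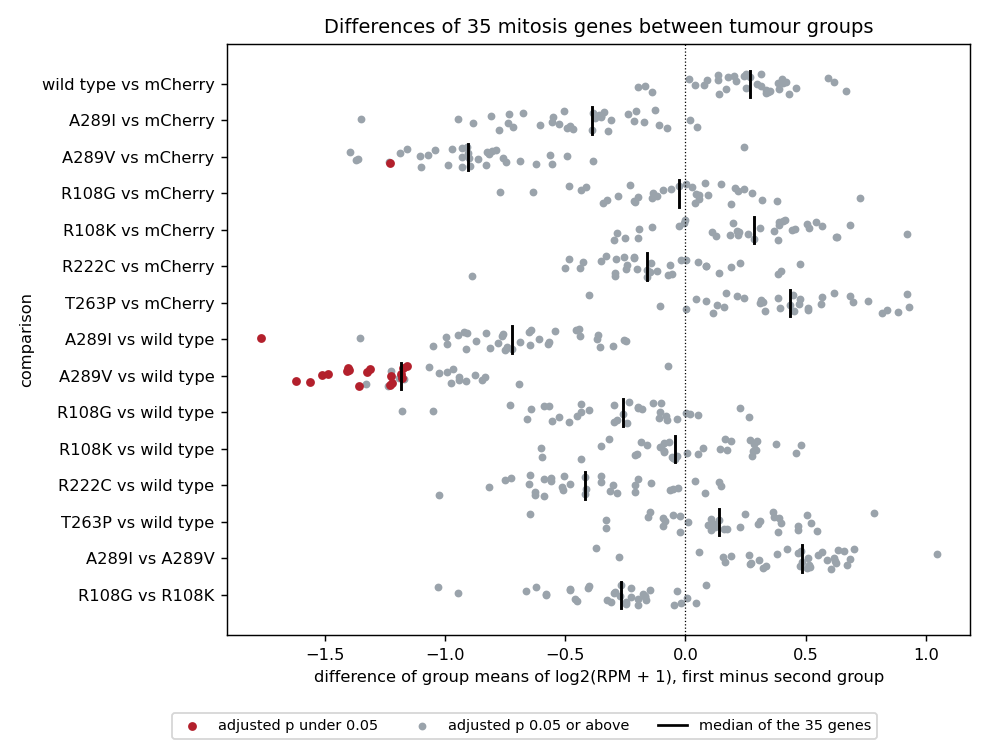
Differences between group means of log2(RPM + 1), first minus second group, for the 35 mitosis genes (points) in 15 comparisons of tumour groups, with the median of the 35 (black bars); red points have a limma adjusted p under 0.05. The 17 called genes of A289V against wild-type EGFR and the single called genes of A289V against mCherry (Nusap1) and A289I against wild-type EGFR (Cenpk) lie below 0.

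Across the 28 tumours the members varied together. The Pearson correlation of each gene with the mean of the other 34, on log2(RPM + 1), had a median of 0.883, and 31 of 35 exceeded 0.8. The tumours share libraries and scaling between both sides of each correlation, so these values are a description. Ccnb1 was closest to the rest, with r of 0.944, before Ube2c (0.934), Ndc80 (0.932) and Aurka (0.931). Within the 3 ranges of library numbers the median was 0.892, 0.913 and 0.909.

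Below the others stood 4 members. Bub1, the kinase that recruits checkpoint proteins to kinetochores, had r of 0.751, Racgap1 0.717 and Cenpk 0.714. Anln had 0.288. For Bub1 the value was 0.979 and 0.936 in the ranges below 20 and above 37 and 0.638 in 20 to 37, the range with R108K 4. For Anln it was 0.023 in the range below 20, 0.211 in 20 to 37 and 0.770 above 37, and 0.618 after the 2 tumours farthest from the median of the mean, A289V 1 and 2, were left out.

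**Figure D4:**
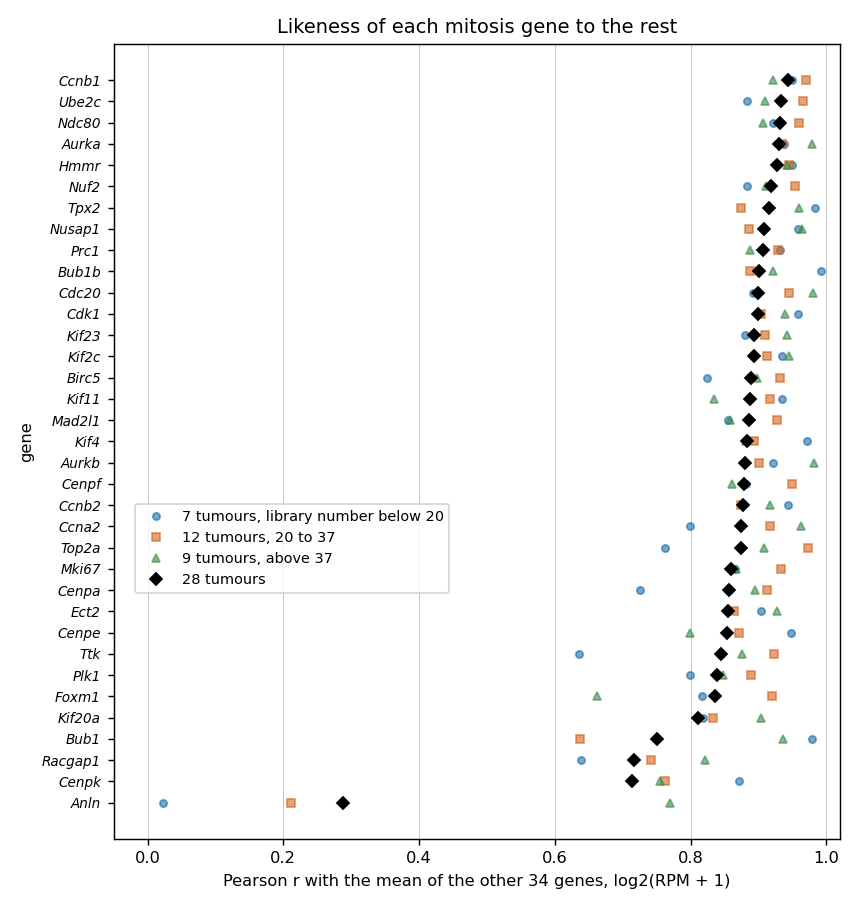
Pearson r of each of the 35 mitosis genes with the mean of the other 34 over 28 tumours, on log2(RPM + 1), with the values within each range of library numbers as smaller marks. Ccnb1 (0.944) is at the top, and Anln (0.288) lies apart from Cenpk (0.714), the next lowest.

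Anln stood at 55.0, 53.3, 36.5 and 33.6 RPM in A289V and at 50.1, 66.0 and 28.998 RPM in wild-type EGFR. A289V 1 and 2, the lowest tumours for most members, were thus among the higher tumours for Anln. Their Anln levels were 1.62 and 1.90 above what the other members gave on the log2 scale, taken as differences from tumour medians. With the mean of 10 myelin markers, Anln had r of 0.07, while the other 34 members had values from -0.53 to -0.09. The value of Anln was not particular to myelin. Its r was -0.02 with neuron, -0.07 with astrocyte, -0.08 with microglia and macrophage and 0.09 with T, NK and B cell markers. With oligodendrocyte precursor markers it was -0.24 and with endothelium and pericyte markers -0.16.

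Among genes outside the list, those most like the mean of the members over the 28 tumours were Cks2, which encodes a small subunit of Cdk1 complexes (r 0.941), Kif14 (0.928), Nsl1 (0.924), Kif22 (0.920) and Smc4 (0.917). They were followed by Rrm1, Sgol2a, Aspm, Pmf1 and Kif18b. The mean of 66 other mitosis genes followed the members with r of 0.994, and that of 36 DNA replication genes with 0.876. The neuron markers ran the other way, at -0.69, as did the astrocyte markers at -0.56, and the myelin markers stood at -0.35.

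Promoter sequence was read from RefSeq for GRCm38.p6, from 250 bases before to 50 after each start site, and 30 of 35 members had an entry. Such promoters are known for a pair of elements, the cell cycle genes homology region (CHR) and CCAAT boxes. The CHR was searched as TTTGAA or TTCGAA, the CCAAT box as CCAAT and an E2F site as TTTGGCGC, TTTCCCGC, TTTCGCGC or TTTGCCGC, all on both strands. The windows of 5 members are shown, 5′ to 3′ on the gene's strand with CHR and CCAAT letters of either strand in capitals. They are the members most like the rest (Ccnb1, Ube2c), the one with the largest difference from cortex (Top2a) and those least like the rest (Cenpk, Anln). The windows are chr13:100786437-100786736 (minus strand) for Ccnb1, chr2:164769679-164769978 (plus) for Ube2c, chr11:99024140-99024439 (minus) for Top2a, chr13:104228361-104228660 (plus) for Cenpk and chr9:22389157-22389456 (minus) for Anln.
Ccnb1: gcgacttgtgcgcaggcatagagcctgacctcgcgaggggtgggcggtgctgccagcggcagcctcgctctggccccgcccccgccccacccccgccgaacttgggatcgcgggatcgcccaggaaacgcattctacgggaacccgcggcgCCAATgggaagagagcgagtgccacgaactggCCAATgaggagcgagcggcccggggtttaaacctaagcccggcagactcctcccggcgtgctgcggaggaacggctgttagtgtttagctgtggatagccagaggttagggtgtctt
Ube2c: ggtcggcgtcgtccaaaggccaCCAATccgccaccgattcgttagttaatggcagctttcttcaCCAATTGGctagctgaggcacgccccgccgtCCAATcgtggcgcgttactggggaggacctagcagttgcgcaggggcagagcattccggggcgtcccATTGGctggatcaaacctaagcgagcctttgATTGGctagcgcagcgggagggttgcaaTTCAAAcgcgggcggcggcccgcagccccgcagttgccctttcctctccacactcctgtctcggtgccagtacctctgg
Top2a: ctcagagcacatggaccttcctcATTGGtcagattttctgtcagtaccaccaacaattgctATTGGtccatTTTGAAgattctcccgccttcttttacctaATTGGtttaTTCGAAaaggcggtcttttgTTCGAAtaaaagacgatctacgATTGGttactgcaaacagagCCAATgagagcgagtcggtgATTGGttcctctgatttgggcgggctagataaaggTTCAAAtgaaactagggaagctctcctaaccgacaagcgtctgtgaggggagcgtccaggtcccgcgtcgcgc
Cenpk: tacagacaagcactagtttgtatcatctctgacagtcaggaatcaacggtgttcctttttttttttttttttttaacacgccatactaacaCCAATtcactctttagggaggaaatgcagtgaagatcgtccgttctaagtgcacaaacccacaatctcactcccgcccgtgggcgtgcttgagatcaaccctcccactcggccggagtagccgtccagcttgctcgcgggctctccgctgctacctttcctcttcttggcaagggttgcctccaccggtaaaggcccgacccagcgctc
Anln: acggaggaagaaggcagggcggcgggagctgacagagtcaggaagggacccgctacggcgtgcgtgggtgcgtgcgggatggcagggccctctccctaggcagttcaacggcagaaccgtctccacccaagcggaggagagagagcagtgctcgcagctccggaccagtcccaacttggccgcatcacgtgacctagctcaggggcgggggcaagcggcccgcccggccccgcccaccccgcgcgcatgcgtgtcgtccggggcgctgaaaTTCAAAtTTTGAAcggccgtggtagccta

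The window of Top2a held 4 CHR and 6 CCAAT matches, that of Ube2c 1 and 6, and that of Anln 2 and 0. Ccnb1, the gene most like the rest, had 0 CHR and 2 CCAAT matches, and Cenpk 0 and 1. Cenpk has 2 more windows at other start sites, with 0 CHR matches and 2 and 1 CCAAT matches, while the other genes shown have 1 window each. The 30 members had 34 windows in all, and a gene counted below where any of its windows held the element. A missing match says only that these letters were not in this window. Of the 30 members, 23 (76.7%) held a CHR, against 21.7% of 27025 genes with windows of the same length. CCAAT was held by 76.7% against 41.1%, both elements by 66.7% against 8.61%, and an E2F match by 3.33% against 2.61%. Among DNA replication genes the order was the other way round, with a CHR in 21.4% and an E2F match in 42.9%. In 22 of the 30 members a CHR lay between 100 bases before and 50 bases after the start site. Of all windows 8.59% held one there, a share by window that is not matched to the count by gene. Matches after the start site, such as those of Bub1, Aurka and Plk1, are part of this count. Members with a CHR had a median r to the rest of 0.883 (23 genes) and those without one 0.889 (7 genes: Birc5, Ccnb1, Cenpe, Cenpk, Mad2l1, Nuf2 and Nusap1).

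Some departures belonged to 1 gene in 1 tumour, and these were chosen after their values were seen. Over 980 pairs of a member and a tumour, 6 lay more than 1 on the log2 scale above what the other members gave and 4 more than 1 below. The largest was Bub1 in R108K 4, at 117 RPM (exact Poisson 95% interval 108.1 to 126.7, which covers counting only). The other tumours ran from 6.88 to 50.7 RPM, and the other R108K tumours were at 32.2, 32.6 and 34.2 RPM. Of the 12 nearest genes averaging 5 RPM or more (6 on each side of Bub1 on chromosome 2), 5 were above and 7 below their tumour medians there, with a median of -0.06.

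Aurkb in T263P 3 stood at 206 RPM (199.9 to 213), against 10.4 to 66.6 RPM in the other tumours. Of its 12 neighbours on chromosome 11, 8 were above their tumour medians, with a median of 0.65. Myh10 was at 448 RPM there against at most 299 in other tumours, Ctc1 at 141 against 61.3, and Tmem107 at 47.3 against 15.9.

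Racgap1 in mCherry 3 stood at 338 RPM (328 to 347), against 57.2 to 229 RPM in the others. Of its 12 neighbours 11 were above their medians, with a median of 0.82. Kif4, a chromosome-bound motor, was at 100.4 RPM in the same tumour, with 10 of 12 neighbours above and a median of 0.56. Tpx2 in T263P 2 was at 158 RPM, with 10 of 12 neighbours above and a median of 0.69. Racgap1 and Tpx2 departed from the other members by 0.95 and 0.93, under the limit of 1. Cenpa in R108K 1 departed by 1.06, with 3 of 12 neighbours above, 9 below and a median of -0.22. For Anln in A289V 1 and 2 the neighbours had medians of 0.11 and 0.10, with 10 and 8 of 12 above.

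In the other direction, Cenpk in A289I 3 was at 1.14 RPM from 5 reads (0.369 to 2.65), with 12 of 12 neighbours below their medians and a median of -0.40. Cenpe, a kinetochore motor, was at 24.9 RPM in R108G 1 with 12 of 12 neighbours below and a median of -0.64. Bub1 in T263P 3 was at 21.6 RPM with 10 of 12 below and a median of -0.59. For Top2a in R108K 1, at 126 RPM, 5 neighbours were above and 7 below, with a median of -0.30. Over the 980 pairs, the departure of a member and the median of its neighbours had r of 0.50, which shares libraries on both sides. The lowest 2.5% of neighbour medians lay below -0.48 and the highest 2.5% above 0.44. The -0.40 beside Cenpk in A289I 3 was between these limits.

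**Figure D5:**
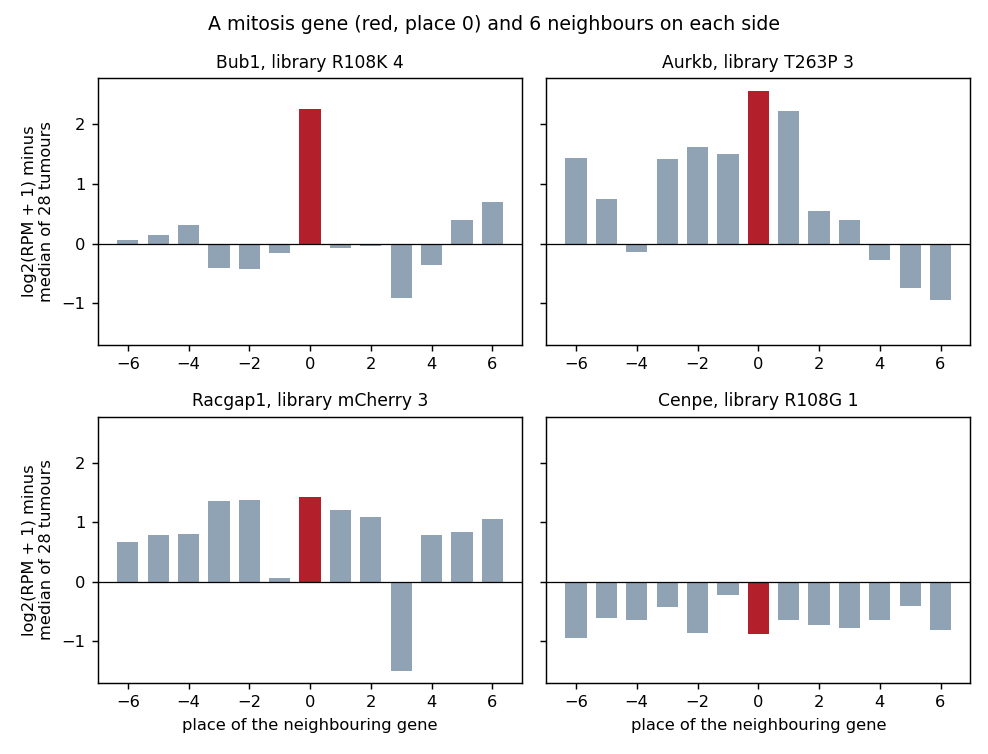
For selected members in single tumours, log2(RPM + 1) minus the tumour median of the member and of the 6 nearest expressed genes on each side, by place along the chromosome. Neighbours of Racgap1 in mCherry 3 lie mostly above 0 and those of Cenpe in R108G 1 below 0, while those of Bub1 in R108K 4 lie on both sides.

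DNA replication genes parted from the mitosis genes in 1 tumour. In R108K 1, the shallowest library, the replication mean was 4.46 and the mitosis mean 5.85, a difference of 1.39 where the other tumours ran from -0.11 to 0.56. Of 36 replication genes 35 were below their tumour median there, and 8 were the lowest of all tumours, while A289V 2 was lowest for 21. In R108K 1, Cdc6, which loads the replicative helicase, was at 2.30 RPM from only 6 reads. The other tumours held at least 4.32 RPM of Cdc6, with a median of 15.7. Uhrf1 was at 17.2 RPM in R108K 1, from 45 reads, against at least 25.6 RPM. Cenpa, the histone H3 variant of centromeres, was at 122 RPM in this tumour, near the highest of all, and Top2a at 126 RPM, below the tumour median of 216.

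Beside the 35 members, the 66 other mitosis genes had 61 higher and 1 lower in tumours than in cortex, with a median of 3.18. The 36 replication genes had 34 higher, with a median of 2.32, and 25 regulators of the programme 14 higher and 3 lower, with a median of 0.72. Of all genes 22.9% were higher in tumours by limma, and 47.4% were called in either direction. Mybl2, which binds such promoters with the MuvB complex, was 3.88 ± 0.41 higher (limma adjusted p 9.00e-08). In A289V against wild-type EGFR, 17 of the 66 other mitosis genes fell and 1, Zwint, rose (1.35 ± 0.40, limma adjusted p 0.0275). Of all genes 3.96% fell there, and 13.7% were called in either direction. Zwint encodes a kinetochore protein that neurons also make. In the same comparison 14 of 36 replication genes fell, with a median of -1.01. Of the regulators 4 fell, among them Rbl1, which encodes p107 (-1.57 ± 0.32, adjusted p 0.00741), and of 7 inhibitors of cyclin-dependent kinases 2 fell, Cdkn2a and Cdkn1b.

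Compared per kilobase of exon, median tumour levels of the members ran from 1.55 RPM per kb for Cenpk to 34.8 for Cdc20. Top2a followed at 23.98, Ube2c at 23.3 and Plk1, the polo-like kinase of mitotic entry and exit, at 21.6. Kif23 was at 3.12 and Cenpf at 3.35. In the GENCODE M21 annotation of mm10, Cenpk lies on chromosome 13 from 104228611 to 104252392 and Anln on chromosome 9 from 22332012 to 22389188. Of the members 9 overlap another protein-coding gene, Cenpk (Ppwd1), Nusap1 (Oip5), Ube2c (Tnnc2), Cdc20 (Elovl1) and Prc1 (Rccd1) among them. Ccnb1, Ccnb2 and Kif4 have a pseudogene named after them. How reads shared with these genes were counted is not given in the sources used here, so levels of these members are less certain.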

How the data were processed

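PolyA RNA of 28 tumours and 2 normal cortices was sequenced as stranded mRNA libraries, per the labels' protocols. The submitters' processing notes name FastQC, STAR 2.5.0a, DESeq2 1.20.0 and the mm10 build, without saying what each did. The deposited gene values were named RPM but behaved as a normalised signal: each library's values are whole reads multiplied by 1 factor, and their totals are 9.31 to 12.04 times that of plain RPM. They were divided by 10.2638, the common scale, and called RPM here. Whole reads were recovered to within 0.05 read for at least 99.9959% of values in every library (1 value failed), giving depths of 2784129 to 24475215 reads. The design had assumed plain RPM, and the log-scale test was kept.

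The 15824 genes that reached 1 RPM in 3 or more libraries went into limma 3.58.1 in R 4.3.3 (trend and robust) on log2(RPM + 1), with 9 group means over all 30 libraries and 21 residual degrees of freedom. Adjusted p-values are Benjamini-Hochberg over all genes tested in each of 24 comparisons and 1 F-test, with a threshold of 0.05. Alternatives were edgeR 4.0.16 (quasi-likelihood, TMM) and DESeq2 1.42.0 on the recovered reads, TMM scaling, a pseudocount of 0.1, no filter, a term for library number range, the neuron marker mean as a covariate and libraries left out. The fit was tested on simulated data. No 2 libraries were duplicates (highest correlation 0.9918). Descriptions were computed in Python 3.11.15 with pandas 2.3.3, numpy 2.4.6 and scipy 1.17.1, and plots drawn with matplotlib 3.10.9.

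The members, gene lists and tests were chosen with earlier results of these data known. All 35 members are named. Values with tests are given for up to 6 called members of smallest p per comparison, or 2 where none was called, for the 4 with the highest and the 4 with the lowest likeness to the rest and for the 4 largest and 4 smallest differences from cortex. The 10 most similar other genes and up to 3 genes per other list are named as well. Poisson intervals (95%) cover counting only.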

Additional observations from a re-analysis of the deposited data

Results flagged for a closer look

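In the 3 groups of 4 or 5 tumours, the highest and the lowest library of each of the 35 members and of their mean was set against the others of its group by Dixon's ratio. A library stood apart 10 times among these 36 measures in 3 groups, where chance, at about 1 in 20 such sets, gives about 5.4. In A289I, tumour 1 was far above the other 4 for 7 members. It stood at 109.6 RPM for Cdk1, where the nearest other tumour was at 46.0. It stood at 85.4 RPM for Cenpe (nearest 35.3), 38.4 for Bub1 (17.0) and 86.9 for Bub1b (40.3). It stood at 90.5 RPM for Kif11 (44.8), 132 for Tpx2 (63.7) and 65.9 for Nusap1 (34.05). In R108K, tumour 3 was far above the others for Ccnb2, at 66.2 RPM with the nearest at 42.2, and for Nusap1, at 94.5 RPM with the nearest at 61.8. R108K tumour 4 was far above the others for Bub1, at 117 RPM with the nearest at 34.2. The 7 values of A289I 1 come from 1 library and are not independent.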

How the results depend on the processing

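Counts of members called against cortex, and the 0 counts of comparisons other than A289I against mCherry, stayed within 1.5 times of the reported value in every alternative run. In A289V against wild-type EGFR the count of 17 became 0 with the neuron covariate, 0 without the tumours with Met above 1000 RPM, 0 without A289V 1 and 2 together, and 0 within library numbers below 20 and 0 within 20 to 37 (an alternative added after the data were seen). These ranges hold 1 A289V tumour and 1 wild-type EGFR tumour respectively, assumed to vary like the other groups, so a 0 there cannot show that calls were lost. The same limit holds without the tumours with high Met, where wild-type EGFR tumour 3 was alone in its group. Leaving out 1 library gave 0 to 23, with 2 without A289V 1, 0 without A289V 2, 5 without EGFR wild-type tumour 1 and 0 without tumour 2. In A289V against mCherry the count of 1 became 0 with a pseudocount of 0.1, no filter, edgeR, the range term, the neuron covariate, without the tumours with high Met, without A289V 1 and 2 together and within library numbers below 20 (A289V 1 alone against mCherry 1 and 2, with the same limit), and 6 with DESeq2. Leaving out 1 library gave 0 to 8, with 2 without A289V 3, 8 without A289V 4 and 0 without A289V 1, A289V 2 or any mCherry tumour. In A289I against wild-type EGFR the count of 1 became 0 with a pseudocount of 0.1, no filter, the range term and the neuron covariate, and 2 with DESeq2. Without the tumours with high Met, wild-type EGFR tumour 3 was again alone, so that run cannot show whether the call was lost. Leaving out 1 library gave 0 to 2, with 2 without A289I 1 and 0 without A289I 2, 3, 4 or 5 or EGFR wild-type tumour 1 or 2. In A289I against mCherry the count of 0 became 1 with DESeq2, and leaving out 1 library gave 0 to 1, with 1 without A289I 1. The F-test count of 7 became 17 with DESeq2, 0 with the neuron covariate and 0 without A289V 1 and 2 together. Leaving out 1 library gave 1 to 15, with 1 without A289V 1, 1 without A289V 2, 15 without A289I 1 and 12 without T263P 2. The cause of these changes was not tested, although leaving out tumours of a small group also lowers the number of samples. Shares of all genes called in the runs with libraries left out, the range term or the neuron covariate are not given here. The counts from those runs therefore cannot be called particular to the members. The cortex mean of 1.35 became 0.44 with a pseudocount of 0.1. The r of Anln, 0.288, became 0.618 without the 2 farthest tumours, 0.023 below 20 and 0.770 above 37. Reversed directions, none of them called, were Mki67 in R108G against mCherry (0.73, then -0.0069 with the range term and within library numbers above 37, where mCherry 3 is the 1 mCherry tumour), Ect2 in R108K against wild-type EGFR (-0.60, then 0.02 without the tumours with high Met and 0.0468 within 20 to 37), Top2a in the same comparison (-0.60, then 0.0791 within 20 to 37, where both values rest on wild-type EGFR tumour 3 alone) and Aurka in A289I against A289V (0.70, then -0.0455 with the range term). Over the other members named with a test, 1298 values kept their direction and side of the threshold, 107 lost a call and 2 gained one. No paired analysis was possible because replicates were numbered in accession order and the library numbers in the titles are not shared between groups. At the lowest depth 1 read is worth 0.383 RPM, so members at a few reads in cortex have wide counting intervals there.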
